A study of Mus musculus with 6 samples.

Results

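Aminoacyl-tRNA synthetase genes were compared between germinal centre B cells treated with the GSK3 inhibitor CHIR99021 and cells treated with its solvent DMSO. The genes were 36 listed members, found by symbol among the 23850 gene entries of each library: 20 whose products serve the cytosol and 16 whose symbols end in 2 and whose products serve mitochondria. The members were listed by function, with earlier results of these data known, and the rule uses no measured value. All 36 reached the mean of 1 FPKM, a fragment count scaled for transcript length and library total, that a gene needed to be tested.

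Both groups had 3 libraries, labelled as biological triplicates, and the cells came from wild-type mice of strain C57BL/6J and were turned into germinal centre B cells in vitro. Naive follicular B cells were kept for 4 days on CD40L-expressing feeder cells with 1 ng/ml IL-4. They then spent 36 h on such feeders with 10 ng/ml IL-21 and either 3 uM CHIR99021 or DMSO, beside which the labels print the same 3 uM. The cells were thus made in culture and not taken from germinal centres, and the sources used here do not say how they were purified before RNA extraction.

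Aminoacyl-tRNA synthetases join each amino acid to its own tRNAs, the step that fixes which amino acid a codon stands for, so every cell that makes protein needs them. They fall into class I and class II by the fold of their catalytic domain. In animal cells several cytosolic enzymes sit with scaffold proteins in a multisynthetase complex. Mitochondria translate their own few messages with a separate set of enzymes that nuclear genes encode, although Gars and Kars supply both compartments. Uncharged tRNA activates the kinase GCN2, which phosphorylates eIF2alpha and so favours translation of the transcription factor ATF4, and many cytosolic synthetase genes are known ATF4 targets. Dividing B cells and antibody-secreting cells both place a high demand on protein synthesis.

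The summed FPKM of a library was 556644 to 616427 with CHIR99021 and 527290 to 617449 with DMSO, and the number of fragments behind it is unknown. Counts of markers called stand beside the 8.13% of all tested genes that rose and the 13.3% that fell. With the replicate number as a block these shares were 18.4% and 24.4%. All 6 B cell markers were detected and fell with CHIR99021. Their summed level was 1281 to 1522 FPKM with CHIR99021 and 2579 to 3433 FPKM with DMSO. Of 5 tested plasma cell markers 3 rose, or 4 with the block, and 1 had a log2 change below 0, at -0.23. The sums of that list were 282 to 314 FPKM with CHIR99021 and 182 to 195 FPKM with DMSO. Germinal centre B cell markers summed to 116 to 125 FPKM with CHIR99021 and 129 to 135 FPKM with DMSO, and of 6 tested Fas passed, as lower. With the block Bcl6 was lower too (adjusted p = 0.00307, limma) and Gcsam higher (adjusted p = 0.0189). Both germinal centre counts are near the shares of all tested genes and are no result about that list. T cell markers summed to at most 0.826 FPKM with CHIR99021 and 1.54 FPKM with DMSO, with Cd3e at 0 in every library. Myeloid markers summed to at most 5.02 FPKM with CHIR99021 and 2.37 FPKM with DMSO, with Cd14 at 0 in every library. Fibroblast markers, which feeder cells could bring, summed to 218, 83.4 and 45.2 FPKM in CHIR99021 replicates 1, 2 and 3 and to 277, 93.9 and 50.9 FPKM in DMSO replicates 1, 2 and 3, and none of the 3 tested passed. With the block 2 of them, Col3a1 and Col1a2, were lower with CHIR99021 (adjusted p = 0.00629 and 0.00479, limma), and the sum was lower with CHIR99021 in each replicate number. The part of these marker lists in the synthetase results was not tested. In bulk samples such as these, fewer cells of a type and less RNA per cell cannot be told apart.

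The cytosolic genes were higher with CHIR99021 as a group: 12 of 20 rose, none fell, and all 20 had a log2 change above 0, as had 45.2% of all tested genes. Among all 10096 tested genes, 8.13% rose and 13.3% fell by the same test, limma with a Benjamini-Hochberg adjusted p under 0.05. The median log2 change, on the scale of log2(FPKM + 1), was 0.36 over the 20 cytosolic genes and -0.04 over all tested genes. In 16 of the 20, every CHIR99021 library lay above every DMSO library, a pattern found in 17.0% of all tested genes, and in none did every CHIR99021 library lie below, as in 23.1% of all tested genes. The summed level of the 20 genes was 1217, 1339 and 1349 FPKM in CHIR99021 replicates 1, 2 and 3, against 971, 1028 and 1078 FPKM in DMSO replicates 1, 2 and 3.

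The count of 12 rests on the libraries used, as does that over all tested genes. The cytosolic count was 7, 4 and 2 without CHIR99021 replicates 1, 2 and 3, and 4, 8 and 6 without DMSO replicates 1, 2 and 3. In the same order, 619, 439 and 328, then 511, 708 and 506 of all tested genes rose, against 821 in the main fit. Dars and Nars passed whichever library was left out. Eprs and Tars passed in 5 of those 6 fits, with an adjusted p of 0.0612 for both without CHIR99021 replicate 3. Of the other 8 genes that rose, Cars and Gars passed in 2 of those fits, Iars, Yars, Lars, Sars and Farsa in 1, and Kars in none, where its lowest adjusted p was 0.0519. With the replicate number as a block, 18 of the 20 rose and none fell, beside 18.4% and 24.4% of all tested genes. Across all tested genes 37.9% of the calls were higher, while upper-quartile and quantile scaling gave 54.8% and 51.2%. The cytosolic count was 16 and 15 under those scalings, beside 1198 and 1232 of all tested genes that rose, against 821 in the main fit.

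**Figure D1:**
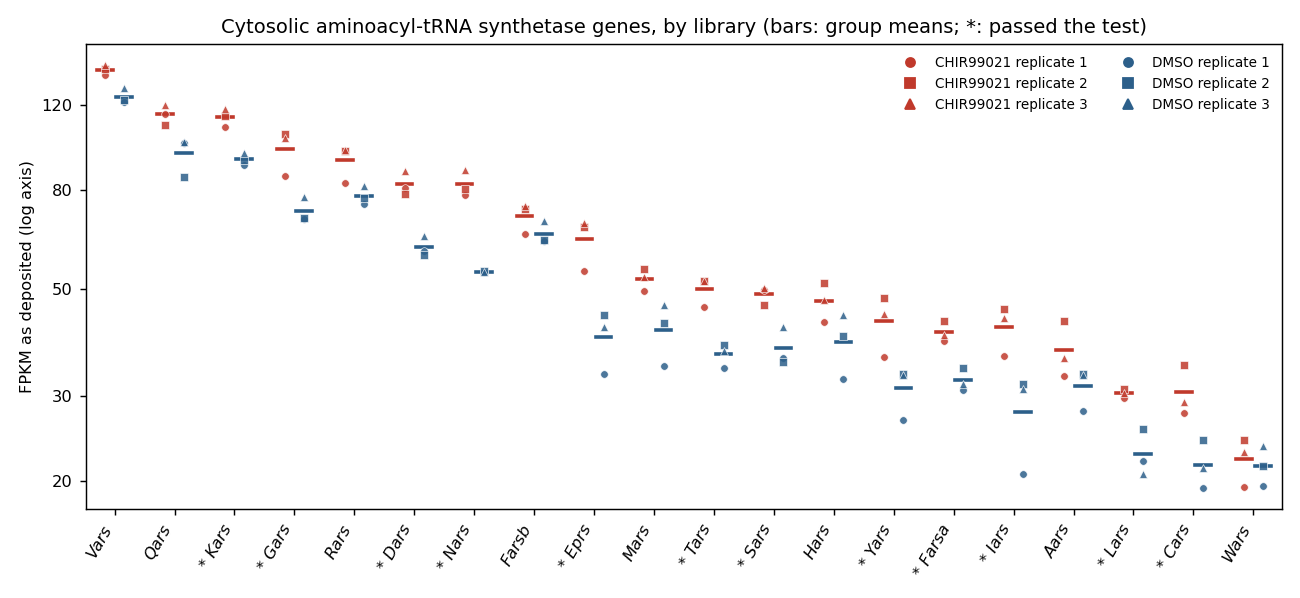
FPKM of the 20 cytosolic synthetase genes in each library on a log axis, CHIR99021 in red and DMSO in blue, with bars for the mean of 3 libraries and an asterisk before genes that passed the test. Vars is highest and Wars lowest, and the red and blue points are apart for 16 of the 20 genes.

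Eprs, which carries the glutamate and proline enzymes in a single polypeptide of the multisynthetase complex, lies on chromosome 1 at 185363095 to 185428355 of mm10. It had 54.4, 67.1 and 68.4 FPKM in CHIR99021 replicates 1, 2 and 3, against 33.3, 44.1 and 41.7 FPKM in DMSO replicates 1, 2 and 3. Replicate 1 was lowest in both groups, and the groups did not overlap. Eprs rose by 0.66 ± 0.13 on the log2 scale (SE, adjusted p = 0.0125, n = 3 each, limma), a 1.59-fold ratio of mean FPKM and the largest log2 change of the 20.

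Nars, the asparagine enzyme (chromosome 18, 64499647 to 64516557), had 78.2, 80.4 and 88.0 FPKM with CHIR99021 and 54.0, 54.3 and 54.0 FPKM with DMSO. The DMSO libraries were nearly identical, and every CHIR99021 library stood above them. Nars rose by 0.59 ± 0.08 (log2, SE), with the smallest adjusted p among the members, 0.00224 by limma.

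Iars, the isoleucine enzyme of the complex (chromosome 13, 49682130 to 49734267), had 36.3, 45.3 and 43.5 FPKM with CHIR99021 and 20.7, 31.8 and 31.0 FPKM with DMSO. Replicate 1 was low in both groups, and the groups were apart. Iars rose by 0.59 ± 0.17 (log2, SE), with a wider spread than Nars and an adjusted p of 0.0465. This was 0.152 without CHIR99021 replicate 3.

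The remaining complex members that passed were Dars, Lars and Kars, which charge aspartate, leucine and lysine. Dars (chromosome 1, 128363707 to 128417416) had 80.7, 78.6 and 87.7 FPKM with CHIR99021 and 59.9, 58.7 and 64.3 FPKM with DMSO, and rose by 0.43 ± 0.08 (adjusted p = 0.0095, limma). Lars (chromosome 18, 42202349 to 42262071) had 29.6, 31.0 and 30.4 FPKM with CHIR99021 and 21.9, 25.5 and 20.6 FPKM with DMSO, and rose by 0.41 ± 0.10 (adjusted p = 0.0244; 0.0898 without CHIR99021 replicate 3). Kars (chromosome 8, 111993440 to 112011305), which feeds mitochondria too, had 108, 114 and 118 FPKM with CHIR99021 and 90.1, 92.1 and 95.6 FPKM with DMSO, and rose by 0.29 ± 0.07 (adjusted p = 0.031; 0.125 without CHIR99021 replicate 3). Groups were apart for all of them.

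The other complex members, Mars for methionine, Qars for glutamine and Rars for arginine, did not pass although their groups were apart. Mars (chromosome 10, 127296221 to 127311786) had 49.4, 54.9 and 52.9 FPKM with CHIR99021 and 34.6, 42.5 and 46.2 FPKM with DMSO, a log2 difference of 0.35 ± 0.12 with an adjusted p of 0.0681. With the replicate block it passed, at 0.00971. Its entry shares 68 bases with that of Ddit3, which encodes the stress factor CHOP and had 22.0 to 32.5 FPKM with CHIR99021 and 31.7 to 72.2 FPKM with DMSO (log2 difference -0.81 ± 0.28, adjusted p = 0.0746, and 0.00584 with the block). Qars had 109 to 120.1 FPKM with CHIR99021 and 85.3 to 101 FPKM with DMSO, at an adjusted p of 0.0777, or 0.00958 with the block. Rars had 82.8 to 97.1 FPKM with CHIR99021 and 74.9 to 81.4 FPKM with DMSO, at 0.0989, or 0.0175 with the block. In all, the complex had 8 enzyme genes, of which 5 rose, or 8 with the block, with a median log2 change of 0.38. The 12 cytosolic genes outside it had 7 that rose, or 10 with the block, and a median of 0.35. These counts stand beside the 8.13% of all tested genes that rose, or 18.4% with the block.

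Tars, the threonine enzyme (chromosome 15, 11383663 to 11399658), had 45.8, 51.9 and 51.9 FPKM with CHIR99021 and 34.2, 38.2 and 37.1 FPKM with DMSO. Gars, the glycine enzyme of both compartments (chromosome 6, 55038001 to 55079504), had 85.5, 104 and 103 FPKM with CHIR99021 and 69.8, 70.1 and 77.5 FPKM with DMSO. The groups were apart for both genes. Tars rose by 0.44 ± 0.09 (log2, SE, adjusted p = 0.0123) and Gars by 0.42 ± 0.10 (adjusted p = 0.0236; 0.10 without CHIR99021 replicate 3), by limma.

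Promoter windows of 250 bases before the RefSeq start (GRCm38.p6) were read because ATF4 and its C/EBP partners bind a composite element that is known from amino acid response genes. The letters searched were TGATGNAAN, on both strands, and the E-box CACGTG, which MYC and related factors bind. A RefSeq window was found for 27 of the 36 members, 13 cytosolic and 14 mitochondrial. None was found for Cars, Lars and Nars, which rose, nor for Hars, Rars, Vars, Wars, Hars2 and Pars2. The composite letters stood in 3 of the 13 cytosolic windows, those of Gars, Tars and Aars, and in none of the 14 mitochondrial ones, beside 3.89% of the windows of 27025 genes. The E-box stood in the windows of Aars, Iars and Farsb, and in 6.86% of all windows. No match overlapped another. The composite letters stood in 2 of the 11 windows of members that rose and in 1 of the 16 of members that did not pass. For the E-box these were 1 of 11 and 2 of 16. A match is a run of letters and says nothing of binding, and Aars and Farsb did not pass the test. The windows with the composite letters, and that of Iars for the E-box, follow 5′ to 3′ on the strand of the gene, with the matches in capitals. They are chr6:55037751-55038000 on the plus strand (Gars), chr15:11399659-11399908 on the minus strand (Tars), chr8:111033592-111033841 on the plus strand (Aars) and chr13:49681880-49682129 on the plus strand (Iars).
Gars: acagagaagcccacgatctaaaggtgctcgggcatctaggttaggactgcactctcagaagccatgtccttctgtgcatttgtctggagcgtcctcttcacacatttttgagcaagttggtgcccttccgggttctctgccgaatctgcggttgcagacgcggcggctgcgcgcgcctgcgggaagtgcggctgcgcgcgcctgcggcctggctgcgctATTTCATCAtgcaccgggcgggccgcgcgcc
Tars: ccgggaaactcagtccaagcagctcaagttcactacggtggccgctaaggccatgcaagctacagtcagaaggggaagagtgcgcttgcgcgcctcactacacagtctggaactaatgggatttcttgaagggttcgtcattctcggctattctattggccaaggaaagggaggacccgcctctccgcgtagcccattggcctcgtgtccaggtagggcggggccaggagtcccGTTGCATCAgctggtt
Aars: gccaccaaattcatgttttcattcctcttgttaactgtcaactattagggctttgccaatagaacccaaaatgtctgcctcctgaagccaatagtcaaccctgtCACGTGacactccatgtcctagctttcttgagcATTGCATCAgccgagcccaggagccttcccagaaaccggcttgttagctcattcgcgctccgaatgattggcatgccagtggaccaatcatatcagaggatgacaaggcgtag
Iars: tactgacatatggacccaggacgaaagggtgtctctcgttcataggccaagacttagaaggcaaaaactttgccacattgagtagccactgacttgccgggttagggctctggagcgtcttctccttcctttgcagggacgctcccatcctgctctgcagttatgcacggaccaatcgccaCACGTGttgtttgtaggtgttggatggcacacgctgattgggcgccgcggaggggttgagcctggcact
The composite match ended 22 bases before the start in Gars, 7 in Tars and 104 in Aars, and each was on the strand opposite to the gene. The E-box of Iars lay 63 bases before the start.

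Cars, Yars and Sars charge cysteine, tyrosine and serine. Cars (chromosome 7, 143557230 to 143600090) had 27.6, 34.7 and 29.1 FPKM with CHIR99021 and 19.3, 24.3 and 21.2 FPKM with DMSO, and rose by 0.48 ± 0.12 (adjusted p = 0.0296; 0.0889 without CHIR99021 replicate 2). Yars (chromosome 4, 129189795 to 129219607) had 36.1, 47.9 and 44.3 FPKM with CHIR99021 and 26.8, 33.3 and 33.1 FPKM with DMSO, and rose by 0.45 ± 0.13 (adjusted p = 0.0496; 0.162 without CHIR99021 replicate 3). Yars was the call closest to the threshold and was lost with a pseudocount of 5. Sars (chromosome 3, 108424864 to 108445259) had 49.7, 46.2 and 50.1 FPKM with CHIR99021 and 35.8, 35.3 and 41.7 FPKM with DMSO, and rose by 0.37 ± 0.09 (adjusted p = 0.0279; 0.109 without CHIR99021 replicate 3). All of these had groups that were apart.

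The phenylalanine enzyme is built from a catalytic alpha subunit, Farsa, and a beta subunit, Farsb. Farsa (chromosome 8, 84856986 to 84869257) had 39.0, 42.8 and 40.0 FPKM with CHIR99021 and 30.9, 34.2 and 31.7 FPKM with DMSO, and rose by 0.32 ± 0.08 (adjusted p = 0.0297; 0.0968 without CHIR99021 replicate 2). Farsb had 64.9, 73.0 and 74.2 FPKM with CHIR99021 and 62.7, 63.1 and 69.1 FPKM with DMSO. Its groups overlapped, and its log2 difference of 0.12 ± 0.09 had an adjusted p of 0.374. The subunits' difference in response was not tested.

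Among the other cytosolic genes that did not pass, Vars, the valine enzyme and the highest of the 20, had 138, 143 and 145 FPKM with CHIR99021 and 122, 123 and 130.1 FPKM with DMSO (log2 difference 0.18 ± 0.07, adjusted p = 0.113, and 0.0251 with the block). Hars, for histidine, had 42.5 to 51.4 FPKM with CHIR99021 and 32.5 to 44.0 FPKM with DMSO (adjusted p = 0.160, and 0.0224 with the block). Aars, for alanine, had 33.0 to 42.8 FPKM with CHIR99021 and 27.9 to 33.2 FPKM with DMSO (adjusted p = 0.209, and 0.0345 with the block). Vars had groups apart, while those of Hars and Aars overlapped. The Aars entry shares 532 bases with that of Exosc6, and how reads there were assigned is not known. Wars, the tryptophan enzyme, had 19.4, 24.3 and 23.0 FPKM with CHIR99021 and 19.5, 21.4 and 23.6 FPKM with DMSO. It was the lowest cytosolic gene, its groups overlapped throughout, and its log2 difference of 0.04 ± 0.12 (adjusted p = 0.835) was above 0 in 1 of 3 replicate numbers.

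The catalytic classes were counted separately. Leaving out Eprs, which holds an enzyme of each class, 4 of 9 class I genes and 7 of 10 class II genes rose, or 8 and 9 with the block. Among all tested genes 8.13% rose, or 18.4% with the block. The median log2 change was 0.35 in both classes, and their difference was not tested. Within a group, replicate 1 was the lowest library for 17 of the 20 cytosolic genes with CHIR99021 and for 16 of them with DMSO. Replicate 1 also had the highest fibroblast marker sum in both groups, and the part of this in the levels was not tested.

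**Figure D2:**
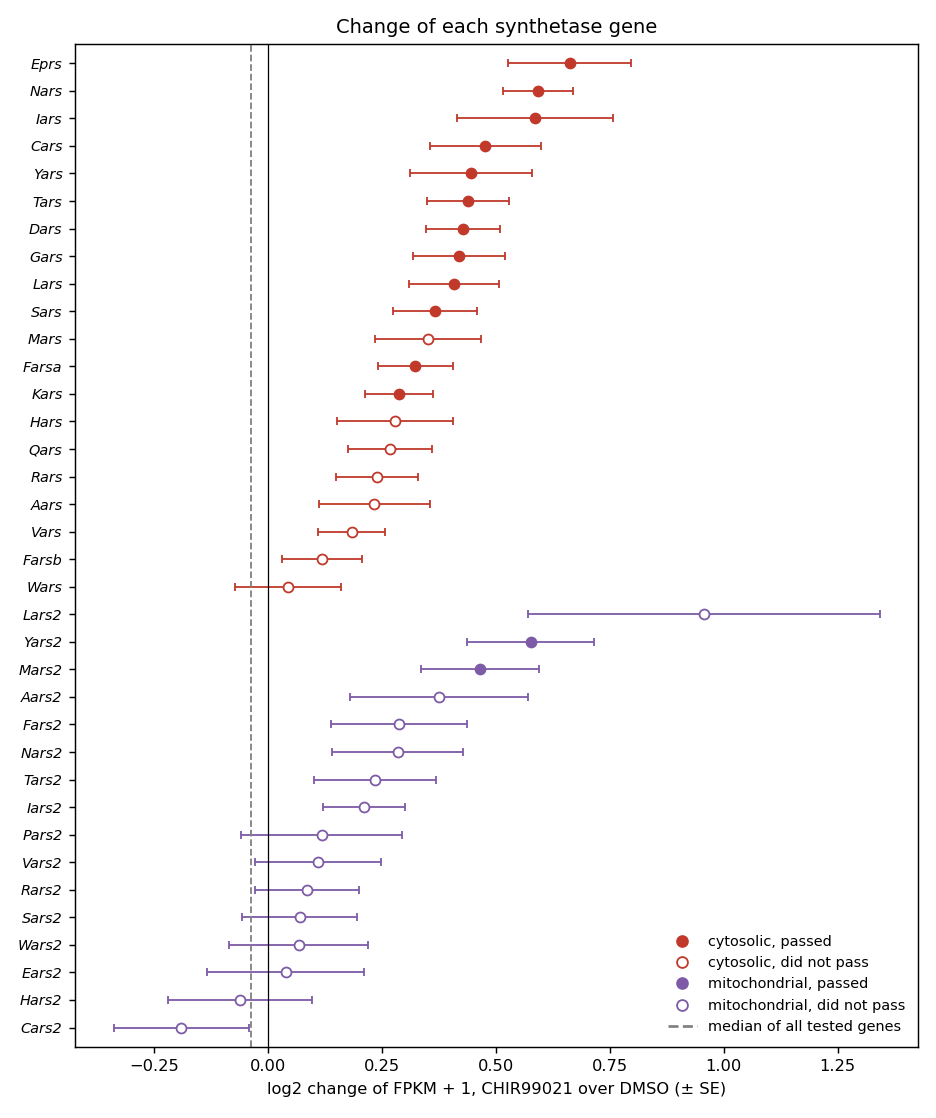
Log2 change of FPKM + 1, CHIR99021 over DMSO, for each of the 36 genes with its standard error from limma (3 libraries per group), cytosolic genes in red and mitochondrial genes in purple, filled where the gene passed. All 20 cytosolic points lie right of 0, and the dashed line marks the median of all tested genes, -0.04.

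Of the 16 mitochondrial genes 2 rose, Yars2 and Mars2, none fell and 14 did not pass. That count is near the background, since 8.13% of all tested genes rose, and is no result about the group. Their median log2 change was 0.16, or 0.12 without Lars2, and 14 of the 16 were above 0, beside 45.2% of all tested genes. Groups were apart, with CHIR99021 above, for 3 of the 16, Iars2, Mars2 and Yars2, which is near the 17.0% of all tested genes. The median level was 5.17 FPKM, against 45.0 FPKM for the cytosolic genes, and the limits that Cufflinks gave lay 8.04% to 40.2% from the value for the genes other than Lars2, against 2.70% to 11.8% for the cytosolic genes. The count of 2 was 0 without CHIR99021 replicate 1, 2 or 3 or DMSO replicate 3, 1 without DMSO replicate 1, and 2, Yars2 and Lars2, without DMSO replicate 2. Those fits called 328 to 708 of all tested genes higher, against 821 in the main fit. With the replicate block the mitochondrial count was 6, beside 18.4% of all tested genes.

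**Figure D3:**
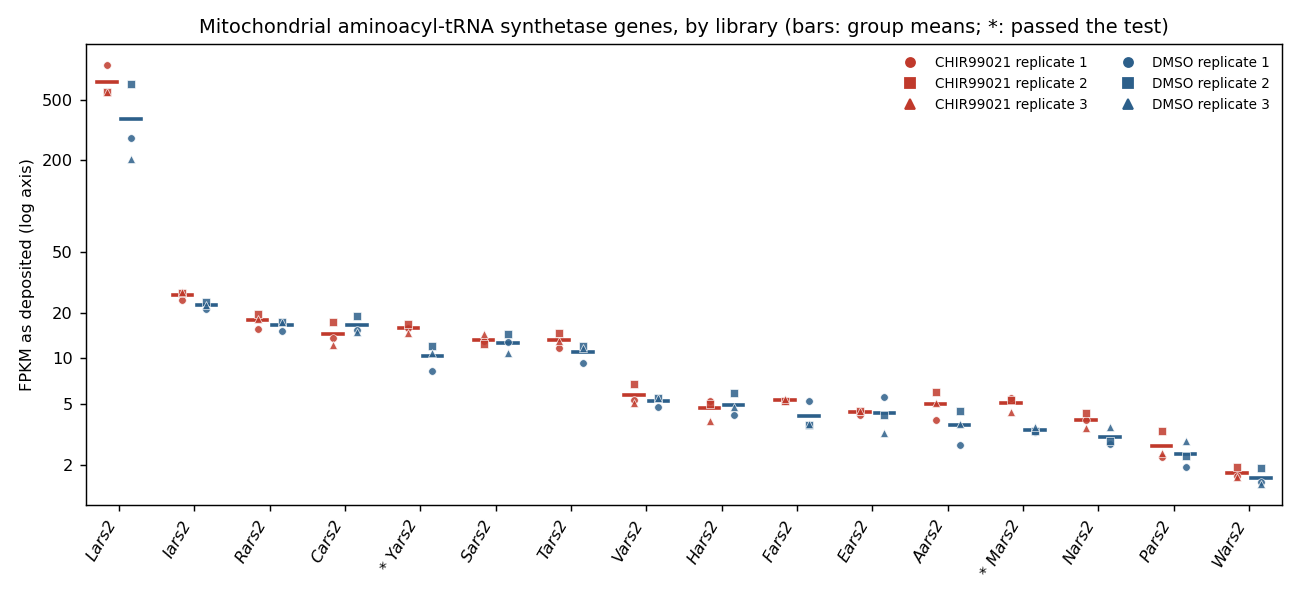
FPKM of the 16 mitochondrial synthetase genes in each library on a log axis, CHIR99021 in red and DMSO in blue, with bars for the mean of 3 libraries and an asterisk before genes that passed. Lars2 stands far above the other 15, whose levels lie under 28 FPKM.

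Yars2, the mitochondrial tyrosine enzyme (chromosome 16, 16302965 to 16309640), had 15.9, 16.9 and 14.7 FPKM with CHIR99021 and 8.32, 12.0 and 10.8 FPKM with DMSO. Its lowest CHIR99021 library exceeded its highest DMSO library. It rose by 0.58 ± 0.14 (log2, SE, adjusted p = 0.0242, limma), a 1.53-fold ratio of means, with an adjusted p of 0.0797 without CHIR99021 replicate 2.

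Mars2, the mitochondrial methionine enzyme (chromosome 1, 55237177 to 55240058), had 5.52, 5.33 and 4.42 FPKM with CHIR99021 and 3.31, 3.34 and 3.56 FPKM with DMSO. The groups were apart. It rose by 0.46 ± 0.13 (log2, SE, adjusted p = 0.0395, limma), a 1.5-fold ratio of means, but passed in none of the fits without a library, where the adjusted p was 0.0592 to 0.120. The Cufflinks limits lay 18.4% to 30.7% from each value.

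Lars2, the mitochondrial leucine enzyme (chromosome 9, 123366940 to 123462664), was unlike the other 15 in level. It had 846, 559 and 558 FPKM with CHIR99021 and 279, 633 and 203 FPKM with DMSO, while the next mitochondrial gene in each library had between 21.0 and 27.1 FPKM. DMSO replicate 2 lay among the CHIR99021 libraries, so the groups overlapped. The log2 difference was 0.96 ± 0.39 with an adjusted p of 0.118 by limma, and 0.048 with the replicate block. Without DMSO replicate 2 it was 1.43 with an adjusted p of 0.00814, and without DMSO replicate 3 it was 0.61 with an adjusted p of 0.305.

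The ribosomal RNA precursor entry Rn45s, looked up after the values of Lars2 were seen, had 2950.0, 1402 and 1704 FPKM with CHIR99021 and 527, 1623 and 434 FPKM with DMSO. Both entries were highest in CHIR99021 replicate 1 and lowest in DMSO replicates 3 and 1, in that order. The ratio of Lars2 to Rn45s was 0.287, 0.399 and 0.327 with CHIR99021 and 0.529, 0.390 and 0.469 with DMSO. Ribosomal RNA is not polyadenylated and is mostly lost in an mRNA library, though the Rn45s entry was read here at the levels above. The part of ribosomal RNA in the Lars2 value was not tested. Rn45s had a log2 difference of 1.41 ± 0.49 (adjusted p = 0.0798, and 0.0446 with the block).

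**Figure D4:**
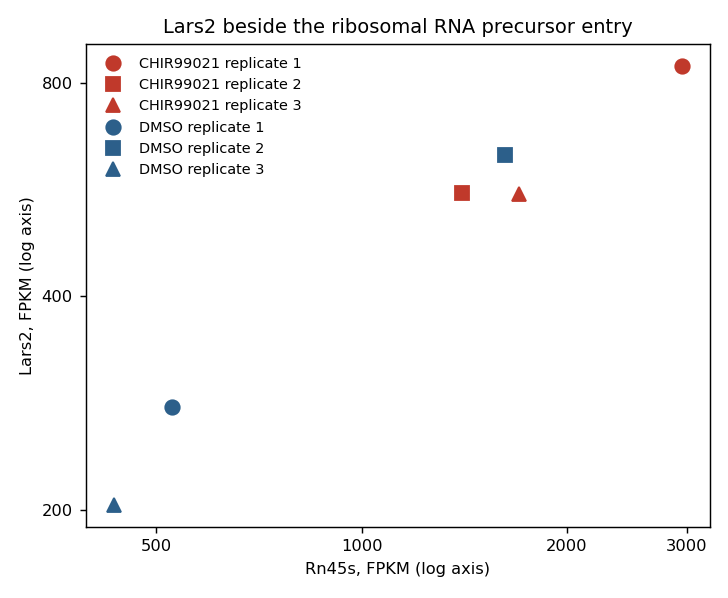
FPKM of Lars2 against FPKM of the ribosomal RNA precursor entry Rn45s in the 6 libraries, both axes logarithmic, with CHIR99021 in red and DMSO in blue. CHIR99021 replicate 1 is highest on both axes, and DMSO replicates 1 and 3 are lowest on both.

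Iars2, for isoleucine and the highest of the rest, had 24.2, 26.8 and 27.1 FPKM with CHIR99021 and 21.0, 23.5 and 22.6 FPKM with DMSO. Every CHIR99021 library was above the DMSO libraries, with a log2 difference of 0.21 ± 0.09 and an adjusted p of 0.137, or 0.0345 with the block. Its entry shares 85 bases with that of Rab3gap2. Aars2, for alanine, had 3.96, 5.99 and 5.10 FPKM with CHIR99021 and 2.70, 4.53 and 3.72 FPKM with DMSO (0.38 ± 0.20, adjusted p = 0.210, and 0.0171 with the block). Tars2, for threonine, had 11.7, 14.7 and 13.1 FPKM with CHIR99021 and 9.32, 12.1 and 11.7 FPKM with DMSO (0.24 ± 0.13, adjusted p = 0.251, and 0.0433 with the block). Replicate 1 was lowest in both groups for all of these genes.

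Fars2, a single-chain phenylalanine enzyme, had 5.21 to 5.41 FPKM with CHIR99021 and 3.67 to 5.25 FPKM with DMSO (adjusted p = 0.209). Nars2, for asparagine, had 3.49 to 4.37 FPKM with CHIR99021 and 2.74 to 3.53 FPKM with DMSO (adjusted p = 0.200). These groups overlapped in both genes by a single DMSO library. Pars2, Vars2, Rars2, Sars2, Wars2 and Ears2, which charge proline, valine, arginine, serine, tryptophan and glutamate, had log2 differences between 0.04 and 0.12 and adjusted p-values between 0.626 and 0.906. Wars2 was the lowest member, at 1.67 to 1.94 FPKM with CHIR99021 and 1.49 to 1.90 FPKM with DMSO.

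Cars2 and Hars2 were the members with a log2 difference below 0. Cars2, the mitochondrial cysteine enzyme, had 13.6, 17.2 and 12.3 FPKM with CHIR99021 and 15.4, 19.0 and 15.0 FPKM with DMSO. It was lower with CHIR99021 in 3 of 3 replicate numbers, yet the groups overlapped and the difference of -0.19 ± 0.15 had an adjusted p of 0.406. Hars2, for histidine, had 5.22, 5.03 and 3.91 FPKM with CHIR99021 and 4.22, 5.88 and 4.81 FPKM with DMSO (-0.06 ± 0.16, adjusted p = 0.831), and the sign turned under upper-quartile and quantile scaling.

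The cytosolic and mitochondrial genes of an amino acid could be set side by side in 17 pairs. Eprs was paired with both Ears2 and Pars2, and Fars2 with both Farsa and Farsb, so the pairs are not all separate genes. The cytosolic gene had the higher mean FPKM in both groups in 16 of the 17. Leaving out the pair of Lars and Lars2, the cytosolic gene was 1.60 to 24.7 times as high as its mitochondrial partner with CHIR99021 and 1.24 to 23.9 times with DMSO. Lars had 0.0463 of the level of Lars2 with CHIR99021 and 0.0611 of it with DMSO. The cytosolic gene had the larger log2 change in 11 of the 17 pairs, and the difference between compartments was not tested. For tyrosine both genes rose. For cysteine the cytosolic gene rose, and Cars2 had the value below 0 given above. For methionine Mars2 rose, and Mars passed with the replicate block.

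**Figure D5:**
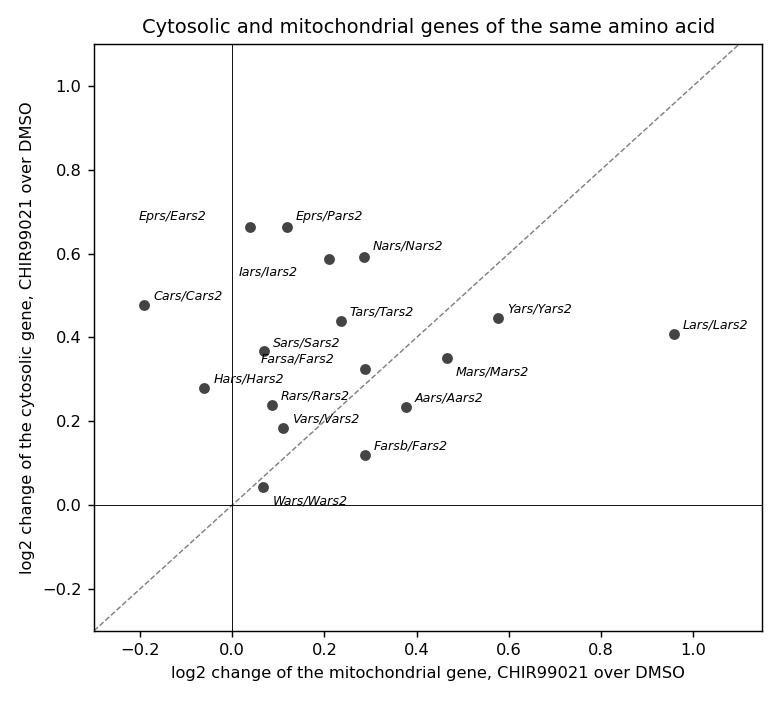
Log2 change, CHIR99021 over DMSO, of the cytosolic gene (vertical axis) against that of the mitochondrial gene (horizontal axis) for 17 pairs that charge the same amino acid. The dashed line marks equal change, and 11 of the 17 points lie above it. Eprs and Fars2 each enter more than 1 pair.

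Companions of the synthetases were read from lists chosen by function, and their counts stand beside the 8.13% of all tested genes that rose and the 13.3% that fell, or 18.4% and 24.4% with the block. With a library left out, 328 to 708 of all tested genes rose, against 821 in the main fit. Of 15 tested charging partners, scaffold and accessory proteins that hold synthetases or handle charged tRNA, 4 rose and none fell, or 6 and none with the block, with a median log2 change of 0.15. Eef1e1, the small scaffold protein AIMP3, had 42.7, 45.2 and 43.2 FPKM with CHIR99021 and 19.0, 23.4 and 24.4 FPKM with DMSO. It rose by 0.95 ± 0.11 (adjusted p = 0.00125, limma) and passed whichever library was left out. Its scaffold partner Aimp2 had 45.8, 45.0 and 55.1 FPKM with CHIR99021 and 32.1, 39.3 and 37.1 FPKM with DMSO, and rose by 0.42 ± 0.11 (adjusted p = 0.0368; 0.133 without CHIR99021 replicate 3). Aimp1, named after its values were seen, had 53.5 to 60.3 FPKM with CHIR99021 and 46.1 to 54.6 FPKM with DMSO (adjusted p = 0.244, and 0.0463 with the block). Xpot, which exports tRNA from the nucleus, rose by 0.66 ± 0.15 (adjusted p = 0.0207; 0.0906 without CHIR99021 replicate 3), and Dtd1, which removes D-amino acids from tRNA, by 0.74 ± 0.18 (adjusted p = 0.0234; 0.0782 without that library). The count of 4 was 1 without CHIR99021 replicate 2, CHIR99021 replicate 3 or DMSO replicate 1, and 2 without DMSO replicate 3.

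Elongation factors bring charged tRNA to the ribosome and move it along. Of 10 tested, 7 rose and none fell, beside 8.13% and 13.3% of all tested genes, and 9 rose with the block. The median log2 change was 0.43. Eef1g, a subunit of the exchange factor of eEF1A, had 1257, 1072 and 1232 FPKM with CHIR99021 and 842, 720.3 and 811 FPKM with DMSO, and rose by 0.58 ± 0.11 (adjusted p = 0.00943, and 0.0544 without CHIR99021 replicate 3). Its fellow subunits Eef1d and Eef1b2 rose by 0.36 and 0.47, and Tsfm, the mitochondrial exchange factor, by 0.61. Without CHIR99021 replicate 3 their adjusted p-values were 0.0917, 0.121 and 0.103. The count of 7 was 3, 2 and 0 without CHIR99021 replicates 1, 2 and 3, and 2, 2 and 3 without DMSO replicates 1, 2 and 3.

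Of 21 tested tRNA processing genes, 6 rose and none fell, beside 8.13% and 13.3% of all tested genes, and 9 rose with the block. The median log2 change was 0.20. Trnt1, which adds the CCA end that synthetases charge, had 35.1, 36.1 and 39.7 FPKM with CHIR99021 and 25.1, 25.2 and 24.1 FPKM with DMSO. Its groups were far apart, and it rose by 0.56 ± 0.08 (adjusted p = 0.00391, limma), passing whichever library was left out. The tRNA ligase D10Wsu52e, now called Rtcb, rose by 0.34, its helicase partner Ddx1 by 0.42, and Trmt10c, a subunit of mitochondrial ribonuclease P, by 0.53. The adjusted p was 0.0656 for D10Wsu52e and 0.0775 for Ddx1 without CHIR99021 replicate 3, and 0.0672 for Trmt10c without DMSO replicate 3. The count of 6 was 2 without CHIR99021 replicate 2, DMSO replicate 1 or DMSO replicate 3, and 1 without CHIR99021 replicate 3.

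Of 6 tested genes for eIF2alpha kinases and the sensing of uncharged tRNA, 1 rose and 1 fell. With 8.13% and 13.3% of all tested genes called in these directions, such a count is no result about the list. Eif2ak3, the endoplasmic reticulum kinase PERK, had 19.0, 19.5 and 18.9 FPKM with CHIR99021 and 11.4, 14.9 and 15.0 FPKM with DMSO, and rose by 0.46 ± 0.12 (adjusted p = 0.0318; 0.103 without CHIR99021 replicate 3). It passed only without DMSO replicate 2 among the 6 fits that left out a library. Eif2ak1, the haem-regulated kinase HRI, had 22.9, 24.1 and 21.5 FPKM with CHIR99021 and 32.8, 30.5 and 35.0 FPKM with DMSO, and fell by 0.50 ± 0.09 on the log2 scale (adjusted p = 0.00801), also whichever library was left out. Eif2ak4, which encodes GCN2 and was named after its values were seen, had 5.87, 8.15 and 7.15 FPKM with CHIR99021 and 5.0, 7.21 and 6.05 FPKM with DMSO. Its groups overlapped, and its log2 difference of 0.19 ± 0.16 had an adjusted p of 0.463. With the block 2 genes of this list rose and 1 fell.

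Of 25 tested genes of the ATF4 amino acid response, a list that shares no gene with the synthetases, 10 rose and 1 fell, beside 8.13% and 13.3% of all tested genes, with a median log2 change of 0.42. With the block 14 rose and 2 fell. The asparagine synthetase Asns had 47.1, 52 and 55.5 FPKM with CHIR99021 and 21.0, 23.4 and 22.1 FPKM with DMSO, and rose by 1.18 ± 0.09 (adjusted p = 0.000455). The serine enzymes Psat1 and Shmt2 rose by 0.74 and 0.78, and Cth, of cysteine synthesis, by 1.16, and these genes passed whichever library was left out. The gene that fell was Ppp1r15a, which encodes the eIF2alpha phosphatase subunit GADD34. With the block Ddit3, also of this list, fell too (log2 difference -0.81, adjusted p = 0.00584, limma). Of the 25 genes, 18 had a log2 change above 0 and 7 below 0. The transcript of Atf4 itself, named after its values were seen, had 239, 259.5 and 219 FPKM with CHIR99021 and 257, 241 and 236 FPKM with DMSO. Its groups overlapped, with a log2 difference of -0.04 ± 0.09 (adjusted p = 0.829), and the amount of ATF4 protein was not measured.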

How the data were processed

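The submitters' processing notes name the trimmer cutadapt 1.12, the aligner TopHat2 2.1.1, the quantifier Cufflinks 2.2.1 and build mm10. Libraries came from a TruSeq Stranded mRNA kit, per the labels' protocols. Not given in the sources used here are the annotation, the strand setting and the treatment of multiply matching reads. Per gene, the authors deposited FPKM with Cufflinks limits, per the file headers. FPKM keep no read counts, so depth is unknown. In the median gene the limits lay 12.5% to 15.4% from the value across libraries, and they cover the error within a library only.

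FPKM were taken to log2(FPKM + 1). The 10096 entries with a mean of 1 FPKM or more were compared between treatments by limma 3.58.1 under R 4.3.3 (variance trend, two-sided, Benjamini-Hochberg over all tested genes, threshold 0.05). The procedure was also run on simulated data whose libraries varied independently, without the shared deviations of same-numbered libraries given below. The log2 scale with a pseudocount of 1 understates changes of low genes, and fold ratios use FPKM alone. Libraries within a group correlated at 0.970 to 0.980, none were duplicates, and p-values measure the spread between these cultures. Tables were read with Python 3.11.15, pandas 2.3.3 and numpy 2.4.6, and figures drawn with matplotlib 3.10.9.

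Members and lists were chosen with earlier results of these data known. Every member is named, with up to 4 genes per list of smallest adjusted p under 0.05, while Rn45s, Ddit3, Fas, Bcl6, Gcsam, Col3a1, Col1a2, Aimp1, Eif2ak4, Atf4 and Ppp1r15a were named after their values were seen. Each group's titles carry replicate numbers 1 to 3, and deviations from group means of same-numbered libraries correlated at 0.535, 0.490 and 0.517, each over 0.1, so the numbers were treated as pairing the libraries in the alternative with a replicate block. Other alternatives were pseudocounts of 0.1 and 5, no filter and a mean of 5 FPKM, upper-quartile and quantile scaling, no variance trend, and each library left out. Gene spans are those deposited on mm10, counted from 1, and promoters are RefSeq's on GRCm38.p6.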

Additional observations from a re-analysis of the deposited data

How the results depend on the processing

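The main counts were 12 cytosolic and 2 mitochondrial genes that rose, among 821 higher and 1343 lower of all tested genes (2164). With no filter they were 4, 0, 338 and 664 (1002 in all), with 23850 entries tested instead of 10096. With a mean of 5 FPKM, 1 mitochondrial gene rose, beside 762 of 7302 tested genes. Mars2, at a mean of 4.25 FPKM, was not tested there, and the 28 members tested kept their calls. With no variance trend 7 cytosolic genes rose, beside 687 of 10096 tested genes, and with quantile scaling 1232 of all genes rose. With the replicate block 18 cytosolic and 6 mitochondrial genes rose, with 1855 of all genes higher and 2466 lower (4321), and the block changed no call of a member other than the 10 given with it above. Leaving out each library gave 2 to 8 cytosolic and 0 to 2 mitochondrial genes, 328 to 708 higher and 733 to 1275 lower, 1061 to 1983 in all. No member fell under any of the 14 alternatives, and Dars and Nars rose in all of them.

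Signs turned only in genes that did not pass. With a library left out, Wars ranged from -0.022 (without DMSO replicate 1) to 0.13, Ears2 from -0.12 (without DMSO replicate 3) to 0.20, Sars2 from -0.032 (without DMSO replicate 3) to 0.16, and Pars2 from -0.0076 (without CHIR99021 replicate 2) to 0.22. Hars2 ranged from -0.15 to 0.047 (without DMSO replicate 2), and was at 0.0076 with upper-quartile and 0.015 with quantile scaling. The cause was not tested. The median over all genes was -0.04, and 0.04 and 0.03 with upper-quartile and quantile scaling. With 3 libraries a group and unknown depth, mitochondrial genes near 5 FPKM had wide Cufflinks limits, and a gene that did not pass is not shown to be equal.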
